A study of Homo sapiens with 16 samples.

Results

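The 10 genes followed here encode RNA-binding proteins that control alternative splicing in neurons, measured in SH-SY5Y cells: CELF2, CELF4, ELAVL2, ELAVL3, ELAVL4, NOVA1, NOVA2, RBFOX2, PTBP1 and PTBP2. They were taken by name and not by a rule on their values, but with earlier results of these data known. All 10 were found among the 69222 genes of the count table and among the 18081 genes with enough counts to be tested. SH-SY5Y is a human neuroblastoma line, and the study asked how conductive films and electrical stimulation (ES) act on it during differentiation. RNA with poly(A) tails was sequenced in 8 groups of 2 libraries, 16 in all. Culture plates carried untreated cells and differentiated cells, and 6 further groups were differentiated on films of P(rGO), a polymer with reduced graphene oxide, of the conducting polymer PEDOT:PSS, or of ITO, indium tin oxide, each with no ES or with ES. All 14 differentiated libraries share one scheme: serum at 5% from day 2, 2.5% from day 3 and 1% from day 5, retinoic acid at 10 µM from day 3 to day 6, then BDNF, a neurotrophin, at 50 ng/mL for 4 days. ES was a square wave of 0.1 V and 1 Hz, given for 8 h a day over the last 4 days. The labels give a poly-L-lysine and laminin coat for the films and name none for the plates, so film and coat cannot be told apart. Whether the replicates are separate cultures is not stated, so each p-value reflects only how these libraries vary, possibly for technical reasons.

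These proteins bind short RNA motifs and decide which exons of a transcript are kept. PTBP1 is the form of dividing and non-neuronal cells and represses many neuronal exons. During neuronal differentiation PTBP1 normally gives way to its paralogue PTBP2, while the neuronal ELAVL (Hu), NOVA, CELF and RBFOX proteins act on exons of synaptic and cytoskeletal transcripts, and Hu proteins also stabilise mRNAs rich in AU.

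Each library had 15600410 to 20851000 reads assigned to genes. The biological coefficient of variation between replicates was 36.2% in untreated cells, 18.1% on differentiated plates and 6.88% to 18.2% in the film groups, so the untreated pair was the least alike. Of 10 neuronal markers, 4 rose on differentiated plates and none fell, against untreated cells. All 6 proliferation markers fell, with a summed level of 1393 to 1962 CPM (counts per 1e6 assigned reads, scaled) in untreated cells and 328 to 609 CPM on differentiated plates. All 9 tested markers of the mesenchymal neuroblastoma state fell as well, from 925 to 1486 CPM in sum to 181 to 204 CPM. Schwann and glial markers summed to at most 10.8 CPM in every library, with 2 of 8, SOX10 among them, at 0 in all libraries, and epithelial markers summed to at most 19.0 CPM. Differentiated plate replicate 1 had the highest share of mitochondrial reads, 8.58%, against 5.42% in its partner and 4.58% to 7.33% on films. Of 9 tested adrenergic neuroblastoma markers 1 rose and 4 fell on plates, from 5476 to 5999 CPM in sum to 4051 to 4138 CPM, and of 7 fibroblast markers 5 fell, from 424 to 636 CPM in sum to 221 to 252 CPM. Films against plates gave 0 rises and 3 falls of the 9 adrenergic markers, 2 and 0 of the 9 mesenchymal, 2 and 1 of the 7 fibroblast, 1 and 1 of the 10 neuronal and 0 and 0 of the 6 proliferation markers. The part of these other markers and of the mitochondrial share in the results below was not tested, and in bulk RNA fewer cells of a type and less RNA per cell cannot be told apart.

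Differentiation moved 3 of the 10 genes on plates: CELF2 and ELAVL4 rose and PTBP1 fell. A gene was called at an adjusted p of at most 0.05, and 29.6% of all tested genes were called in that comparison, a share close to 3 of 10. On films against untreated cells 7 of the 10 were called, CELF2, CELF4, ELAVL3, ELAVL4 and NOVA1 higher and ELAVL2 and PTBP1 lower, beside 47.9% of all genes. Films against plates gave 2 calls, CELF2 higher and ELAVL2 lower, beside 7.78%. For the single unstimulated films against plates P(rGO) gave 2 calls, PEDOT:PSS gave 1 and ITO gave 2, beside 4.63%, 1.48% and 4.23% of all genes. A test of any difference over the 8 groups called CELF2, CELF4, ELAVL4 and PTBP1, which makes 4, beside 23.5%. The model fits 1 spread per gene over all 8 groups, although the untreated pair varied most (36.2%). Standard errors and p-values of comparisons with untreated cells may therefore be too small, above all where the untreated replicates differ widely. Where 1 of the 2 libraries of a group is left out below, the lone library is likewise assumed to vary like the other groups. The median log2 difference of the 10 genes was 0.26 on plates and 0.13 on films against untreated cells, and that of all genes was -0.01 and 9e-04.

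**Figure D1:**
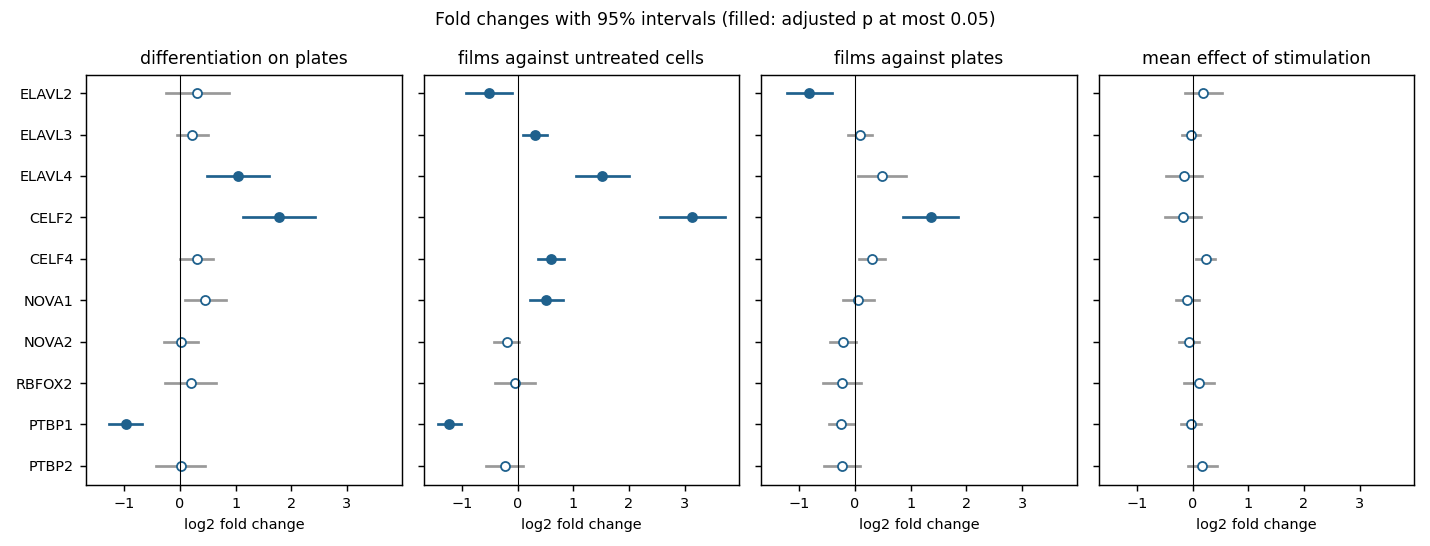
Log2 fold changes (x axis) of the 10 genes with 95% intervals in 4 comparisons; filled points have an edgeR adjusted p of at most 0.05. CELF2 and ELAVL4 lie to the right and PTBP1 to the left in both comparisons with untreated cells, and no gene is filled for the mean effect of stimulation.

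PTBP1 fell to 0.508 of its untreated level on differentiated plates, and PTBP2 showed no change past the test. PTBP1 lies on chromosome 19 from 797075 to 812327 on the plus strand, and PTBP2 on chromosome 1 from 96721665 to 96823738 on the plus strand (GRCh38, GENCODE). PTBP1 protein is known to make a 34-base exon of both transcripts skip, and skipping shifts the reading frame and sends the transcript to decay. The exons are shown because this is the known link between the paralogues. Capitals mark the positions at which the exons differ, on the plus strand, PTBP1 at chr19:807869-807902 and PTBP2 at chr1:96806419-96806452.
PTBP1: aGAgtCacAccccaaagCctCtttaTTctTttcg
PTBP2: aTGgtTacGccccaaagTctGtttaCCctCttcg
The exons match at 25 of 34 positions (73.5%), and 64.7% of the bases of each are C or T. Both lengths leave 1 base over when divided by 3. The annotation has the exon in 6 of the 13 transcripts of PTBP1 that span it and in 6 of the 9 of PTBP2. The counts are per gene, so forms with and without the exon were summed and skipping was not analysed here.

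PTBP1 stood at 457 and 505 CPM in the 2 untreated libraries and at 271 and 217 CPM on differentiated plates. In the 12 film libraries it ran from 174 to 227 CPM, with a median of 206 CPM. Every differentiated library was below both untreated ones. On plates PTBP1 fell by 0.98 on the log2 scale (SE 0.14, n = 2 and 2 libraries), a fold of 0.508, with an adjusted p of 3.89e-04 by edgeR's quasi-likelihood test with Benjamini-Hochberg adjustment over all tested genes. The mean of the 6 film groups was lower than untreated cells by a log2 difference of -1.22 (SE 0.10, n = 12 and 2, edgeR adjusted p = 6.85e-07). The further step from plates to films was -0.24 (SE 0.10) and did not pass (edgeR adjusted p = 0.178). A model of the 4 plate libraries alone gave nearly the same plate difference, -0.98, but an adjusted p of 0.11.

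The levels of PTBP2 overlapped between untreated and differentiated cells. It measured 35.0 and 22.4 CPM in untreated cells, 33.3 and 24.5 CPM on differentiated plates and 21.1 to 31.2 CPM on films. Its log2 change on plates was 0.01 (SE 0.20; 95% interval -0.43 to 0.45), and on films against untreated cells -0.23 (SE 0.15; 95% interval -0.56 to 0.10), and neither passed. The 2 untreated libraries decided the latter: without replicate 1 it was 0.12, and without replicate 2 it was -0.50 with an edgeR adjusted p of 0.015. The ratio of PTBP2 to PTBP1 counts needs no library scaling. It was 0.0445 and 0.0765 in untreated cells and 0.0992 to 0.179 in the 14 differentiated libraries, which did not overlap with the untreated pair. PTBP1 still had the higher count in every library, and the higher level per kilobase of exon, 27.2 to 35.5 CPM per kilobase over the differentiated group means against 1.72 to 2.24 for PTBP2.

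**Figure D2:**
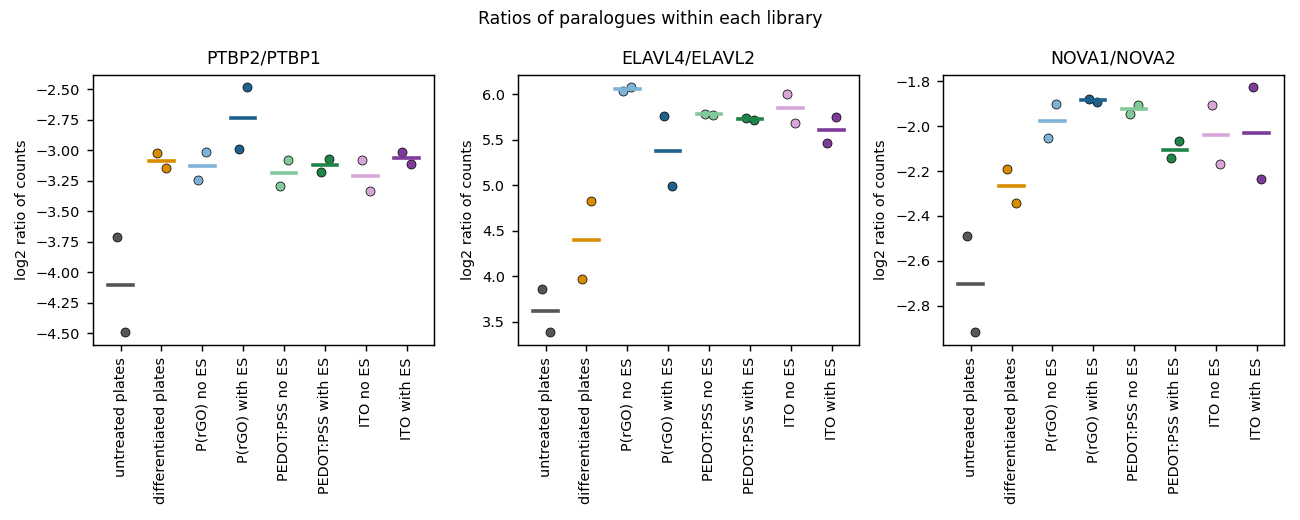
Log2 ratio of counts of paralogues within each of the 16 libraries (y axis) by group (x axis); points are libraries and bars group means of the log2 ratio. PTBP2/PTBP1 is lowest in the 2 untreated libraries (-4.49 and -3.71) and lies between -3.33 and -2.48 in the differentiated ones, while ELAVL4/ELAVL2 is highest on films.

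Among the neuronal Hu genes, ELAVL4 (HuD) rose and ELAVL2 (HuB) was lower on films. ELAVL3 (HuC) was slightly higher on films than in untreated cells. ELAVL4 lies on chromosome 1 from 50048014 to 50203786 on the plus strand, ELAVL3 on chromosome 19 from 11451326 to 11481046 on the minus strand, and ELAVL2 on chromosome 9 from 23690104 to 23826337 on the minus strand. Untreated cells had 533 and 277 CPM of ELAVL4, differentiated plates 694 and 969 CPM, and the films 922 to 1378 CPM with a median of 1213 CPM. The untreated replicates differed 1.92-fold, yet both were below all 14 differentiated libraries. ELAVL4 rose by 1.04 on the log2 scale on plates (SE 0.26, n = 2 and 2, edgeR adjusted p = 0.00958) and by 1.52 on films against untreated cells (SE 0.22, n = 12 and 2, edgeR adjusted p = 8.47e-05). Without differentiated replicate 2 the plate difference was 0.77 and the call was lost (adjusted p = 0.109). Without untreated replicate 1 it was 1.57 and without untreated replicate 2 it was 0.65, both called (adjusted p = 1.45e-04 and 0.0435). With only the 4 plate libraries in the model the adjusted p was 0.188. Films and plates differed by 0.49 (SE 0.20), which did not pass (edgeR adjusted p = 0.17), but it passed when no low-count filter was used (0.00202) and when only the compared groups were fitted (0.0277).

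ELAVL2 went the other way on films. It stood at 36.6 and 26.6 CPM in untreated cells and 44.2 and 34.1 CPM on differentiated plates. The film libraries ran from 17.0 to 35.3 CPM with a median of 21.5 CPM; replicate 2 of P(rGO) with ES held the highest value, and it was the only film library above the lower plate library. ELAVL2 was lower on films than on plates by a log2 difference of -0.82 (SE 0.19, n = 12 and 2, edgeR adjusted p = 0.0167). Without differentiated plate replicate 1 this was -0.63 with an adjusted p of 0.413, and over all genes the calls fell from 1406 to 146 without that library. Against untreated cells the difference was -0.52 (SE 0.20, edgeR adjusted p = 0.0422), and the groups overlapped. Without untreated replicate 1 it was -0.27 with an adjusted p of 0.39, and 10 of the 12 omissions of a film library left an adjusted p of 0.0504 to 0.0672. On plates the change was 0.31 (SE 0.26, 95% interval -0.26 to 0.87), not past the test.

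ELAVL3 stood at 376 and 339 CPM in untreated cells, 384 and 451 CPM on differentiated plates and 410 to 475 CPM on films. It was higher on films than in untreated cells by 0.31 on the log2 scale (SE 0.10, edgeR adjusted p = 0.0201), without overlap, but without untreated replicate 2 the adjusted p was 0.117. Between films and plates ELAVL3 differed by 0.09 (SE 0.10, edgeR adjusted p = 0.664), which did not pass. AC008481.3, on the same strand, shares 5.38% of ELAVL3's exonic length, so a part of ELAVL3's reads may have been left out as ambiguous. The ratio of ELAVL4 to ELAVL2 counts was 10.4 and 14.5 in untreated cells, 15.7 and 28.4 on differentiated plates and 31.8 to 67.6 on films. Per kilobase of exon, ELAVL3 was the highest of the 10 genes in untreated cells with 75.1 CPM per kilobase (SD 5.42, n = 2), followed by PTBP1 with 69.9 (SD 4.92) and ELAVL4 with 58.2 (SD 25.9), and these 3 do not differ beyond their spread. In all 7 differentiated groups ELAVL4 was first, ELAVL3 second and PTBP1 the third. ELAVL4 reached 119 CPM per kilobase on differentiated plates (SD 27.9, n = 2) and 147 to 186 over the film groups.

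**Figure D3:**
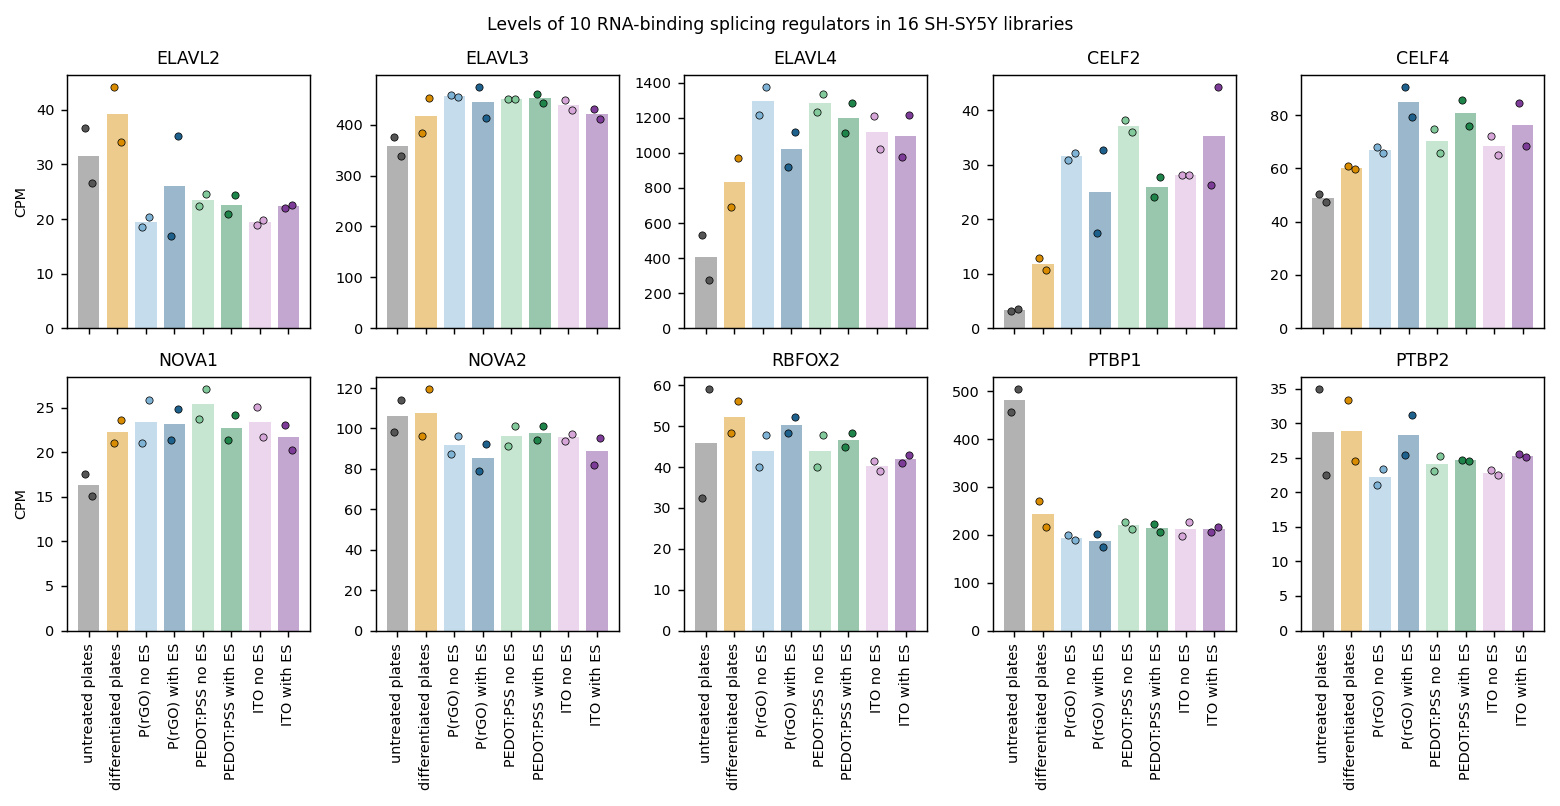
CPM (y axis, from 0) of the 10 genes in the 8 groups (x axis); points are libraries and bars the means of 2 libraries. CELF2 climbs from 3.25 and 3.57 CPM in untreated cells to 17.4 to 44.3 CPM on films, and PTBP1 falls from 457 and 505 CPM to 174 to 227 CPM.

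CELF2 had the largest change of the 10 genes, and it differed between plates and films as well. CELF2, on chromosome 10 from 10798397 to 11336675 on the plus strand, encodes a CUG-binding protein that regulates splicing, and CELF4, on chromosome 18 from 37243047 to 37566037 on the minus strand, a relative enriched in excitatory neurons. CELF2 was at 3.25 and 3.57 CPM in untreated cells, with as few as 55 counts in a library, and at 12.8 and 10.7 CPM on differentiated plates. On films it ran from 17.4 to 44.3 CPM with a median of 29.5 CPM. Untreated, plate and film libraries formed 3 ranges that did not overlap. Within the films the spread was wide: P(rGO) with ES had 17.4 and 32.6 CPM and ITO with ES 26.3 and 44.3 CPM, while the unstimulated pairs were close, at 30.9 and 32.2 CPM for P(rGO), 38.2 and 36.0 CPM for the PEDOT:PSS film and 28.1 and 28.1 CPM for ITO. CELF2 rose 3.44-fold on plates (log2 1.78, SE 0.30, n = 2 and 2, edgeR adjusted p = 0.00111) and 8.82-fold on films against untreated cells (log2 3.14, SE 0.27, n = 12 and 2, edgeR adjusted p = 1.31e-06). With only the 4 plate libraries in the model, the plate call was lost (adjusted p = 0.0648). Even so, per kilobase of exon CELF2 stayed among the 3 lowest of the genes in every group, with 2.28 to 3.38 CPM per kilobase over the film group means.

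Films exceeded plates in CELF2 by 1.36 on the log2 scale (SE 0.23, n = 12 and 2, edgeR adjusted p = 0.0029). The call was lost without differentiated plate replicate 1, with a log2 difference of 1.49 and an adjusted p of 0.0578. Taken alone, the unstimulated P(rGO) film exceeded plates by 1.42 (SE 0.27, adjusted p = 0.00948), PEDOT:PSS by 1.66 (SE 0.27, adjusted p = 0.00878) and ITO by 1.26 (SE 0.27, adjusted p = 0.0192), all by edgeR with n = 2 and 2. These comparisons share the plate libraries. Leaving out either plate library or either library of the film ended each of the 3 calls, with adjusted p of 0.0508 to 0.0796 for P(rGO), 0.0505 to 0.0878 for PEDOT:PSS and 0.0885 to 0.113 for ITO, and the log2 differences ran from 1.15 to 1.79.

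CELF4 was higher in every differentiated library than in untreated cells, which had 50.5 and 47.4 CPM. Differentiated plates had 60.7 and 59.6 CPM, unstimulated films 65.1 to 74.6 CPM and stimulated films 68.3 to 90.7 CPM. Against untreated cells it rose on films by 0.60 on the log2 scale (SE 0.11, n = 12 and 2, edgeR adjusted p = 5.41e-04), and on plates the difference was 0.30 (SE 0.14, adjusted p = 0.116). Films and plates differed by 0.30 (SE 0.11, edgeR adjusted p = 0.103), which did not pass. All 12 film libraries were above both plate libraries. How many of all genes separate so, in this or other comparisons, was not counted. With only the compared groups fitted, the difference passed (edgeR adjusted p = 0.043). Antisense genes overlap 0.54%, 2.59% and 3.93% of CELF4's exonic length, and no source used here says whether the counting used strand.

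Promoters of CELF2 and ELAVL4 are shown as examples of genes that rose in differentiated cells. Receptors of retinoic acid, which all differentiated cells were given, bind repeats of the half-site AGGTCA. Whether they act on any of these genes was not tested. Each window of 300 bases spans a RefSeq transcript start (GRCh38.p14, plus strand). Capitals mark AGGTCA on either strand, CELF2 at chr10:10798475-10798774 and ELAVL4 at chr1:50109583-50109882. For CELF2 this is the single window with these letters, and 9 of its 10 windows lack them. For ELAVL4, 3 of 7 windows hold them, and 1 is printed.
CELF2: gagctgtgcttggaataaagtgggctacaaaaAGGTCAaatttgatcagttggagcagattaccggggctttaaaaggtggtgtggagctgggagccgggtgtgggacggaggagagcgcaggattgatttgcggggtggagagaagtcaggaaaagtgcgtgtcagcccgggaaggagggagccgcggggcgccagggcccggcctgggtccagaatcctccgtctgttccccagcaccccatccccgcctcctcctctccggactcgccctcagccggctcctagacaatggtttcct
ELAVL4: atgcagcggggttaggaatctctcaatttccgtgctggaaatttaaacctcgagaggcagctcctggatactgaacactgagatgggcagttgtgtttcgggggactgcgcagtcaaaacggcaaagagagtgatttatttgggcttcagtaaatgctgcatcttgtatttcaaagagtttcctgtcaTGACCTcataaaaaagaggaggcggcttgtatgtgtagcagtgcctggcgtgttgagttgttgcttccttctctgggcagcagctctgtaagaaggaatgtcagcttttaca
The letters were found in 6 of the 31 windows that the table used here holds for 8 of the 10 genes (19.4%), against 13.8% of all 35116 windows. Both strands were searched, and a match describes the sequence only. Each printed window holds 1 match and no repeat. Of the other members, NOVA2 had 1 window with 1 match. ELAVL2, which was lower on films, had 1 window with 2 matches, more than any other member window. The windows of CELF4 (1 window) and NOVA1 (3 windows), which were higher on films than in untreated cells, held none. Nor did those of PTBP1 (2 windows) and PTBP2 (1 window). With so few windows per gene, finding none says little.

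NOVA1 was higher on films than in untreated cells, and NOVA2 and RBFOX2 passed in none of the comparisons with all libraries. NOVA1 and NOVA2 bind repeats of UCAU and RBFOX2 binds UGCAUG, and all 3 regulate neuronal exons. They lie on chromosome 14 from 26443093 to 26597754, chromosome 19 from 45933734 to 45973546 and chromosome 22 from 35738736 to 36028425, all on the minus strand. NOVA1 had 17.5 and 15.1 CPM in untreated cells, 21.1 and 23.6 CPM on differentiated plates and 20.3 to 27.1 CPM on films, with no overlap between untreated and differentiated libraries. NOVA1 rose by 0.51 on the log2 scale on films against untreated cells (SE 0.14, edgeR adjusted p = 0.00722), and lost the call without untreated replicate 2 (adjusted p = 0.061). On plates its difference was 0.45 (SE 0.17, adjusted p = 0.062), and without untreated replicate 1 it was 0.56 and passed (adjusted p = 0.0332). Between films and plates NOVA1 differed by 0.06 (SE 0.13, edgeR adjusted p = 0.842), which did not pass. NOVA2, the higher of the pair per kilobase of exon in every group, had 98.3 and 113.9 CPM in untreated cells. It had 96.1 and 119.6 CPM on plates and 78.8 to 101.4 CPM on films. Its film difference of -0.20 (SE 0.11, 95% interval -0.43 to 0.03) did not pass. The NOVA1 to NOVA2 count ratio was 0.132 and 0.178 in untreated cells and 0.197 to 0.282 in the 14 differentiated libraries.

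RBFOX2 measured 32.5 and 59.1 CPM in the 2 untreated libraries, a 1.82-fold gap that spans all 14 other values, which ran from 39.1 to 56.3 CPM. Films against untreated cells gave -0.05 (SE 0.16, 95% interval -0.40 to 0.31). The sign turned on the untreated library used: without replicate 1 it was -0.42 (adjusted p = 0.0147), and without replicate 2 it was 0.46 (adjusted p = 0.0213). On plates the difference was 0.19 (SE 0.21), and the same omissions gave -0.19 (adjusted p = 0.347) and 0.69 (adjusted p = 0.00876). RBFOX1 and RBFOX3, the other members of that family, were near 0. RBFOX1 averaged 1.80 CPM in untreated cells and at most 0.172 CPM in any other group mean, and it fell by 4.94 on films (SE 0.62, edgeR adjusted p = 3.75e-05). RBFOX3, also known as NeuN, averaged at most 0.210 CPM in any group.

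None of the 10 genes passed the test for stimulation. By edgeR none of the 18081 tested genes was called for stimulation of cells on any single film (P(rGO), PEDOT:PSS, ITO), for its mean effect or for its difference between films, so the background was 0% in each. At an unadjusted p under 0.05 there were 986, 126, 293, 1021 and 133 genes. DESeq2 called 12, 0, 0, 2 and 0 genes, and edgeR with no filter on low counts, over 36835 genes, called 168, 3, 18, 137 and 13, none of them a member. CELF4 was the only member with an unadjusted p under 0.05, on P(rGO) and for the mean effect. With ES it had 90.7 and 79.2 CPM on P(rGO) against 68.1 and 65.6 CPM with no ES, which did not overlap. On PEDOT:PSS it had 85.5 and 76.0 CPM against 74.6 and 65.7 CPM, and these too did not overlap. On ITO it had 84.5 and 68.3 CPM against 72.0 and 65.1 CPM, which overlapped. The mean effect was 0.24 (SE 0.08, 95% interval 0.07 to 0.40), with an edgeR adjusted p of 0.817. Such separation was not particular to CELF4. With ES, PTBP2 had 25.3 and 31.2 CPM on P(rGO) against 21.1 and 23.3 CPM. For ITO its values were 25.6 and 25.0 CPM against 23.2 and 22.5 CPM, and neither overlapped. RBFOX2 on P(rGO) and ELAVL2 on ITO were also higher without overlap, and ELAVL4 on P(rGO) and CELF2 on PEDOT:PSS lower. Pairs of libraries separate easily, and the share over all genes was not counted. The summed proliferation markers were lower with ES than with no ES on P(rGO) (142 to 182 against 295 to 334 CPM) and PEDOT:PSS (350 to 405 against 501 to 598 CPM) and overlapped on ITO (254 to 549 against 407 to 413 CPM), and their part in the CELF4 values was not tested. The mean-effect intervals of some other members bound only an effect averaged over the 3 films, not an effect on a single film. PTBP1 lay at -0.03 (95% interval -0.20 to 0.14), ELAVL4 at -0.16 (-0.47 to 0.16) and CELF2 at -0.18 (-0.50 to 0.15). ELAVL2, with the widest interval of the 10 genes, lay at 0.19 (-0.14 to 0.53), and PTBP2 at 0.18 (-0.08 to 0.43). The single-film differences of CELF2 had wider intervals. They were -0.33 (95% interval -0.90 to 0.23) for P(rGO), -0.52 (-1.09 to 0.04) for PEDOT:PSS and 0.33 (-0.23 to 0.89) for ITO. The test of their difference between films gave an unadjusted p of 0.088 by edgeR and an adjusted p of 1. Leaving out replicate 1 of P(rGO) with ES turned the CELF2 difference on P(rGO) to 0.05, and leaving out replicate 2 of ITO with ES turned that on ITO to -0.09. Unstimulated films were also compared with each other: no member was called for PEDOT:PSS against P(rGO), ITO against P(rGO) or PEDOT:PSS against ITO, beside 0% of the tested genes, with 243, 299 and 283 genes and no member at an unadjusted p under 0.05, and 0, 0 and 2 genes by DESeq2.

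The remaining genes of the same protein families and of other splicing regulators were described by lists. Of the 8 relatives of the members, 6 were tested, and CELF6 and RBFOX3 were too low. On films against untreated cells 1 of 6 rose and 3 fell, beside 21.9% of all genes called higher and 26% called lower. CELF5, a brain CELF gene, rose by 1.37 (SE 0.13, adjusted p = 3.21e-06), from 60.1 and 41.0 CPM to 120 to 152 CPM on films, and on plates it had risen by 1.35 (SE 0.16, adjusted p = 1.10e-04). ELAVL1 (HuR), the Hu protein of all tissues, fell by 0.48 (SE 0.08) and CELF1 by 0.45 (SE 0.10). The other 2, PTBP3 with 0.29 and CELF3 with 0.28, did not pass. Films and plates differed in none of the 6 by edgeR (1 at an unadjusted p under 0.05).

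Of 12 tested tissue-restricted splicing regulators, 1 rose and 8 fell on films against untreated cells (median -0.48). QKI, which is high in glia, had a log2 difference of -0.96, MSI1, a neural progenitor protein, -1.10, MBNL2 -1.49 and RBM24 -2.21, all called. RBM24 was low throughout, at a mean of 1.25 CPM in untreated cells and 0.14 to 0.40 CPM over the film groups. MBNL2 averaged 44.5 CPM in untreated cells with a wide spread (SD 21.7, n = 2) and 13.2 to 18.9 CPM over the film groups. SRRM4, a neuronal activator of microexons, was lower on films than on plates by 0.69 on the log2 scale (SE 0.11, adjusted p = 0.00164), at 62.0 and 73.7 CPM on differentiated plates, 34.7 to 48.0 CPM on films and 45.9 and 48.8 CPM in untreated cells. It was the only one of the 12 called between films and plates. Of the 12 SR and TRA2 proteins, which mostly promote exon inclusion, none rose and 8 fell on films (median -0.46), with SRSF1 at -0.97, TRA2B at -0.68 and SRSF4 at -0.67. Of 18 tested hnRNP proteins, which often repress exons as PTBP1 does, none rose and 12 fell (median -0.50), led by HNRNPC at -0.96 and HNRNPA1 at -1.29. Between films and plates 1 hnRNP gene rose, RALY by 0.41, and 1 fell, HNRNPA1 by 0.64. HNRNPL is listed at 0 in every library and HNRNPR at 0 or nearly so, although most cells use them, so their counts say nothing of expression. The share of all genes called lower was 26% for films against untreated cells and 15.8% on plates, where 0 SR proteins rose and 3 fell and 0 hnRNP proteins rose and 9 fell.

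**Figure D4:**
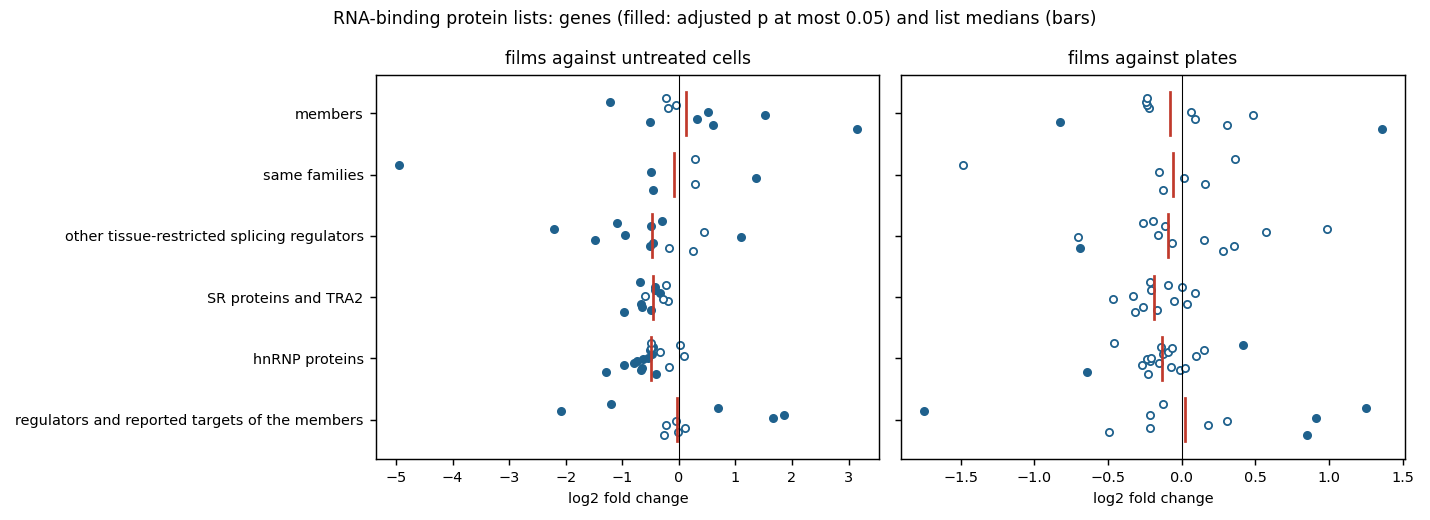
Log2 fold changes (x axis) of tested genes in the member list and 5 other lists (y axis), for films against untreated cells and for films against plates; filled points are called and red bars are list medians. SR and hnRNP genes lie mostly left of 0 on films against untreated cells, with medians of -0.46 and -0.50, while CELF2 at 3.14 is the farthest point to the right.

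A list of 10 regulators and reported targets of these proteins was also followed. On films against untreated cells 3 rose and 2 fell, which is 5 of 10 beside 47.9% of all genes. GAP43, a growth-cone protein whose mRNA HuD binds, rose by 1.67 (SE 0.21, adjusted p = 2.56e-05), from 88.1 and 75.9 CPM to 139 to 351 CPM. MYCN, whose mRNA HuD also binds, fell by 2.09 (SE 0.23, adjusted p = 7.53e-06), from 13.7 and 7.81 CPM to 1.78 to 3.33 CPM. CDKN1A, a cell-cycle inhibitor and Hu target, rose by 0.70 (SE 0.22, adjusted p = 0.0187), and NRN1, a neurite factor, fell by 1.19 (SE 0.17, adjusted p = 7.47e-05). On plates REST, a repressor of neuronal genes, fell by 1.12 (SE 0.20, adjusted p = 0.00142), from 30.4 and 47.7 CPM to 16.1 and 19.8 CPM, but on films it was at 26.6 to 37.8 CPM. REST was higher on films than on plates, by 0.85 (SE 0.16, adjusted p = 0.00589). MYCN was lower there by 1.75 (SE 0.23), CDKN1A higher by 1.25 (SE 0.23) and GAP43 higher by 0.91 (SE 0.20), so that 4 of 10 were called, beside 7.78% of all genes. All differences between films and plates rest on the same 2 plate libraries. Genes of this list and of the lists above were not followed with single libraries left out. The list was also chosen with earlier results of these data known, so its share is a description only.

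Across the 16 libraries PTBP1 and ELAVL4 had a Pearson r of -0.914 of log2 CPM, PTBP1 and CELF2 -0.891, and ELAVL4 and CELF2 0.906. These values share the same step from untreated to differentiated libraries and the same library scaling, and are given as a description. The 3 genes most like PTBP1 were GAPDH (r = 0.989), a glycolytic enzyme, SNRPA (0.987), a U1 splicing factor, and SSRP1 (0.986), a histone chaperone. Those most like CELF2 were JHY (0.966), MPP4 (0.964) and CCDC90B (0.959). MPP4 averaged 0.30 CPM in untreated cells, 3.23 CPM on differentiated plates and 10.7 to 13.9 CPM over the film groups.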

How the data were processed

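The deposited table holds read counts, 1 column a library, made by the authors with STAR and HTSeq and the builds GRCh38.p13 and hg38, per the submitters' processing notes, which give no versions, nor is a strand setting given. Per the labels' protocols, the kit for poly(A) RNA was directional. The 5 summary rows stayed out of all library sizes. Of the assigned, gene-less and ambiguous reads together, reads without a gene were 5.58% to 10.0% and ambiguous reads 4.73% to 5.33%. Levels are CPM on library sizes scaled with edgeR's TMM. Levels per kilobase divide by the merged length of all annotated exons of a gene, whether or not the cells use them. These lengths and the overlaps with other genes come from a GENCODE release that may differ from the annotation used for counting. In R 4.3.3, edgeR 4.0.16 kept 18081 genes with its default filter and fitted 1 mean per group over 16 libraries with a robust quasi-likelihood model (8 residual degrees of freedom); calls needed an adjusted p (Benjamini-Hochberg) of at most 0.05. SE is the log2 difference over the root of F. The model was tested on simulated data drawn with the same spread in all groups, so that test does not cover the unequal spread seen here. The 10 members and all lists were chosen with earlier results of these data known. The rule for named genes took all members, up to 4 genes a list by smallest p, and for PTBP1 and the member of smallest F-test p the 3 most correlated genes. The alternatives tried were DESeq2 1.42.0, RLE scaling, no filter on low counts, the replicate number as a block, fits of the compared groups alone, and each replicate left out. Precision is limited by 2 libraries per group; depth and intervals cover counting error and library spread only.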

Additional observations from a re-analysis of the deposited data

How the results depend on the processing

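Of 41 member differences followed, 17 were called. Over the 5 other settings 195 values kept their direction and side of the threshold, 5 lost the call, 5 gained one and none changed sign. With single libraries left out 299 kept both, 35 lost the call, 4 gained one and 8 changed sign. Member counts changed by more than 1.5 times in 5 cases: PEDOT:PSS against plates gave 3 with no filter on low counts, in which 36835 genes were tested; P(rGO) and ITO against plates gave 1 each with the replicate block; and with only the compared groups fitted, with fewer samples, differentiation on plates gave 0 and films against plates 4. With a library left out the count was 0 to 2 for films against plates, 0 to 1 for the P(rGO) film, and 0 to 0 for the PEDOT:PSS film and the ITO film against plates. Values that changed sign ran from -0.50 to 0.12 for PTBP2 and from -0.42 to 0.46 for RBFOX2 on films against untreated cells, from -0.19 to 0.69 for RBFOX2 on plates, from -0.86 to 0.049 for CELF2 with stimulation on P(rGO), from -0.093 to 0.66 for CELF2 and from -0.0027 to 0.30 for CELF4 with stimulation on ITO, and from -0.063 to 0.0072 for the mean effect on PTBP1. The cause was not tested. The labels give every replicate 1 one prefix and every replicate 2 another, without saying what they mark. Same-numbered deviations correlated from -0.189 to 0.294 over 28 pairs of groups, with 16 over 0.1, so pairing was not taken as given. Among the 15 pairs of film groups all were above 0 and 13 over 0.1. The replicate block lost ELAVL2 on P(rGO) (adjusted p = 0.0516) and ITO (0.0546) against plates and added CELF4 for films against plates (0.0481). Counts over all genes moved too. With only its 4 libraries fitted, differentiation on plates called 320 genes in place of 5353, and films against plates 2889 in place of 1406. With no low-count filter edgeR called 2176 genes for films against plates, and 1625, 872 and 1430 for the P(rGO), PEDOT:PSS and ITO films against plates, in place of 1406, 838, 267 and 764, and DESeq2 called 1414, 643 and 1187 for the 3 films. With no filter it called 168, 3 and 18 genes for stimulation on the 3 films, 137 for the mean effect, 13 for its difference between films and 16 to 48 between films, no member among them. The lowest count of a member in a library was 55, for CELF2.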
